A study of Rattus norvegicus with 9 samples.

Results

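The genes of the rat major histocompatibility complex (MHC) and of antigen presentation were followed in RNA-sequence of rat primary hippocampal neurons. They were chosen by name, as every protein-coding gene whose symbol begins with RT1-, the rat name of the MHC, together with B2m, Tap1, Tap2, Tapbp, Psmb8, Psmb9, Psmb10, Psme1, Psme2, Cd74, Ciita and Nlrc5. This gave 43 of the 34092 genes measured, 31 of them RT1 genes and 12 with other symbols. The neurons came from the hippocampus of wild-type fetuses taken on embryonic day 17. Sprague-Dawley is the strain that the paper names for its rats. The cells were cultured to 7 days in vitro (DIV) without mitotic inhibitors, so dividing cells were not removed. The 3 groups were neurons given vehicle (Control), 1 nM of the human peptide aminoprocalcitonin (NPCT) or 1 nM of human procalcitonin (PCT). The peptides were given for 24 h, and the sample labels used here hold no time for Control. PCT is the parent peptide and NPCT is the stretch cut from its amino terminus. Each group had 3 libraries. The labels number them as replicates, while the methods describe pooling of the biological triplicates of each group before RNA extraction. The p-values and SDs therefore measure the spread between these libraries, which may be technical in part or in full.

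MHC class I molecules consist of a heavy chain and the light chain β2-microglobulin, and they show peptides from inside the cell at its surface. The peptides are cut by the proteasome, whose catalytic subunits can be replaced by the interferon-induced subunits of the immunoproteasome, and are carried into the endoplasmic reticulum by the transporter Tap1/Tap2 and loaded with the help of tapasin. MHC class II molecules show peptides taken up from outside and are held ready by the invariant chain Cd74. In the brain, class II and its invariant chain are known chiefly from microglia, and neurons are known for low levels of class I.

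The libraries held 14527524 to 15360559 fragments on genes in Control, 13573056 to 15224624 with NPCT and 14106698 to 17211642 with PCT. Levels are given as FPKM, fragments per length of gene and per library size, so that they can be set side by side between genes. Of the 43 genes, 23 reached a mean of 0.5 FPKM over the 9 libraries and were tested, and 20 stayed below it. The tests were made with limma on log2(FPKM + 0.1), and calling a gene took a change beyond 1.5-fold with a Benjamini-Hochberg adjusted p no higher than 0.05. The cultures carried markers of neurons at a summed 2289 to 2393 FPKM in Control, of astrocytes at 2461 to 2640.2 FPKM and of microglia at 73.6 to 85.0 FPKM. The library NPCT 3 stood apart, with microglial markers summing to 241 FPKM against 82.9 and 78.4 FPKM in NPCT 1 and 2.

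The antigen presentation genes covered a wide range of levels. B2m, the class I light chain, was far above the rest with a mean of 347 ± 10.6 FPKM in Control (SD, n = 3), which put it at rank 189 of the 15958 genes tested by its mean over all libraries. Of 21 class I heavy chain genes, 13 were tested, and the highest in Control were RT1-N2 at 6.45 FPKM, RT1-M3-1 at 5.28 FPKM, RT1-CE5 at 5.03 FPKM and RT1-A2 at 4.87 FPKM. All 3 genes of peptide transport and loading were tested, with Tapbp, which encodes tapasin, at 7.93 FPKM, Tap1 at 4.83 FPKM and Tap2 at 0.695 FPKM. Of the 5 immunoproteasome genes 4 were tested, with Psmb10 at 21.8 FPKM and the activator subunit Psme2 at 19.9 FPKM as the highest.

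**Figure D1:**
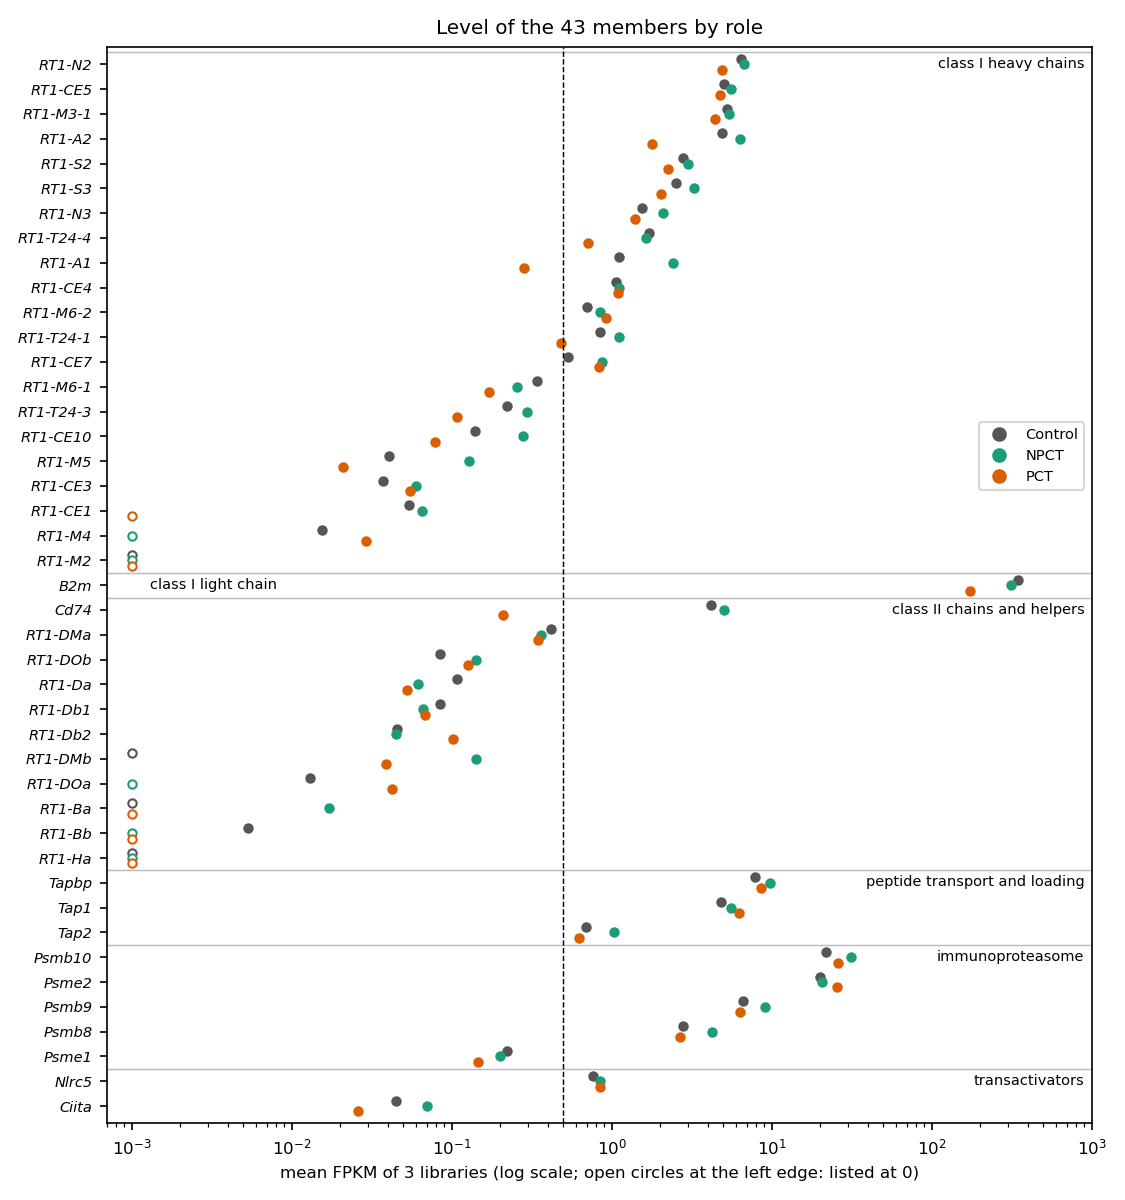
Mean FPKM of the 43 genes in each group on a log scale, ordered by role, each point the mean of 3 libraries, with the dashed line at the filter of 0.5 FPKM and open circles for genes listed at 0. B2m lies furthest to the right at 347 FPKM in Control, and Cd74 is the only class II gene right of the dashed line.

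The class II side was nearly empty apart from its invariant chain. Cd74 was at 4.20 ± 0.519 FPKM in Control (SD, n = 3), and none of the 10 RT1 class II genes reached the filter. The 5 classical chain genes RT1-Ba, RT1-Bb, RT1-Da, RT1-Db1 and RT1-Db2 together gave 5 to 13 fragments per library, and all 10 class II RT1 genes gave 16 to 33 fragments per library. Ciita, the transactivator of class II genes, was below the filter as well, with 5, 1 and 5 fragments in Control, 6, 3 and 8 with NPCT and 2, 1 and 4 with PCT. RT1-M2 and RT1-Ha were listed at 0 in all libraries, and 8 of the 43 genes had no more than 3 fragments in any library. Summed, the 10 class II RT1 genes held 1.52 ± 0.421 of every 1000000 fragments in Control, 1.62 ± 0.419 with NPCT and 1.46 ± 0.642 with PCT (SD, n = 3), so the PCT sum was 96.0% of Control. These sums differed by less than the spread between libraries, and the fragments of single class II genes were too few to compare.

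The comparison of PCT with Control asked how the parent peptide changed these genes. Of the 23 genes tested, 5 were called lower with PCT and 0 higher, where over all 15958 genes tested 2.31% were called (1.72% lower and 0.589% higher) and 3017 had an unadjusted p under 0.05. The 5 genes were B2m, Cd74 and the class I heavy chains RT1-A1, RT1-A2 and RT1-T24-4. The groups did not overlap for 6 genes with PCT lower and 1 with PCT higher, where the shares over all genes were 11.9% and 13.1%. The median log2 fold change of the 23 genes was -0.16, beside 0.0046 over all genes tested. The count fell to 3 (B2m, Cd74 and RT1-A2) with any single NPCT library or PCT 2 left out, and to 2 (B2m and Cd74) with any single Control library left out. It was also 3, for the same genes, under 6 of the other settings, a replicate block among them.

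B2m was at 352, 355 and 335 FPKM in the Control libraries, 287, 295 and 354 FPKM with NPCT and 180, 186 and 155 FPKM with PCT. All 3 PCT libraries lay far below every Control and NPCT library, while NPCT 3 lay within the Control range. B2m, on chromosome 3 from 114087287 to 114093309 (plus strand, Rnor_6.0), fell by 1.00 on the log2 scale with PCT (SE 0.0955, limma adjusted p = 0.000988), which left 49.9% of the Control fragments relative to library size (95% exact interval from counting error only, 48.9 to 50.9%). This call was kept under each of 18 alternatives in processing or with a library left out, with adjusted p from 7.88e-05 to 0.00867.

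Cd74 was at 4.36, 3.62 and 4.62 FPKM in Control, 4.73, 4.86 and 5.59 FPKM with NPCT and 0.291, 0.253 and 0.0819 FPKM with PCT. It rested on 93, 75 and 93 fragments in Control and on 6, 5 and 2 fragments with PCT, so the PCT libraries held almost none. Cd74, on chromosome 18 from 56071478 to 56080849 (plus strand), fell by 3.87 on the log2 scale (SE 0.285, adjusted p = 0.000326). Pooled over libraries, PCT held 4.81% of the Control fragments relative to library size (95% exact interval from counting error only, 2.53 to 8.37%). The call was kept under all 18 alternatives, with log2 fold changes from -4.43 to -2.10. In bulk RNA, fewer cells of a type and less RNA per cell cannot be told apart, and microglial markers had a median log2 fold change of -1.39 in the same comparison.

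RT1-A2, a class I heavy chain gene of the classical type, was at 5.23, 4.78 and 4.59 FPKM in Control, 5.01, 5.42 and 8.68 FPKM with NPCT and 1.33, 2.19 and 1.84 FPKM with PCT. The PCT libraries lay apart from the rest, and NPCT 3 was the highest of all 9. RT1-A2, on chromosome 20 from 5374985 to 5378539 (plus strand), fell by 1.42 on the log2 scale with PCT (SE 0.232, adjusted p = 0.0128). The call was lost when any single Control library was left out, with adjusted p of 0.0505 to 0.064, and was kept under the other 15 alternatives.

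RT1-A1, the classical gene beside it, was at 0.694, 1.60 and 1.04 FPKM in Control, 2.36, 2.53 and 2.38 FPKM with NPCT and 0.371, 0.336 and 0.146 FPKM with PCT. The 3 groups did not overlap, with NPCT at the top and PCT at the bottom. RT1-A1 fell by 1.64 on the log2 scale with PCT (SE 0.366, adjusted p = 0.0417), a call kept under only 4 of 18 alternatives, with adjusted p up to 0.141. Under these alternatives its log2 fold change ran from -1.98 to -0.70, the smallest fall being with a pseudocount of 1. Its gene model, on chromosome 20 from 5351605 to 5421098, contains RT1-A2 on the same strand. The split of fragments between these similar genes is therefore uncertain. Reads were aligned to the reference genome Rnor_6.0. Whether the RT1 sequences of the cultured fetuses differ from it, or between libraries, was not examined, and the levels of single RT1 genes may depend on this.

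As a pair, RT1-A1 and RT1-A2 held 11.1 ± 0.988 of every 1000000 fragments in Control, 17.6 ± 3.22 with NPCT and 3.77 ± 0.750 with PCT (SD, n = 3). The PCT sum was 34.0% of Control. The other 19 class I heavy chain genes together held 52.8 ± 4.26 of every 1000000 fragments in Control, 60.3 ± 3.99 with NPCT and 44.8 ± 8.26 with PCT, or 84.8% of Control with PCT. No test was made on these sums.

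RT1-T24-4, a non-classical class I heavy chain gene, was at 2.03, 1.39 and 1.73 FPKM in Control, 1.18, 1.74 and 1.98 FPKM with NPCT and 0.617, 0.601 and 0.905 FPKM with PCT. Its PCT libraries lay below every other library, though on only 15, 14 and 26 fragments. RT1-T24-4, on chromosome 20 from 3189473 to 3197457, fell by 1.18 on the log2 scale (SE 0.274, adjusted p = 0.0493), a call kept under 3 of 18 alternatives, with adjusted p up to 0.193. It overlaps an antisense gene, and the counting is not stated to use strand.

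**Figure D2:**
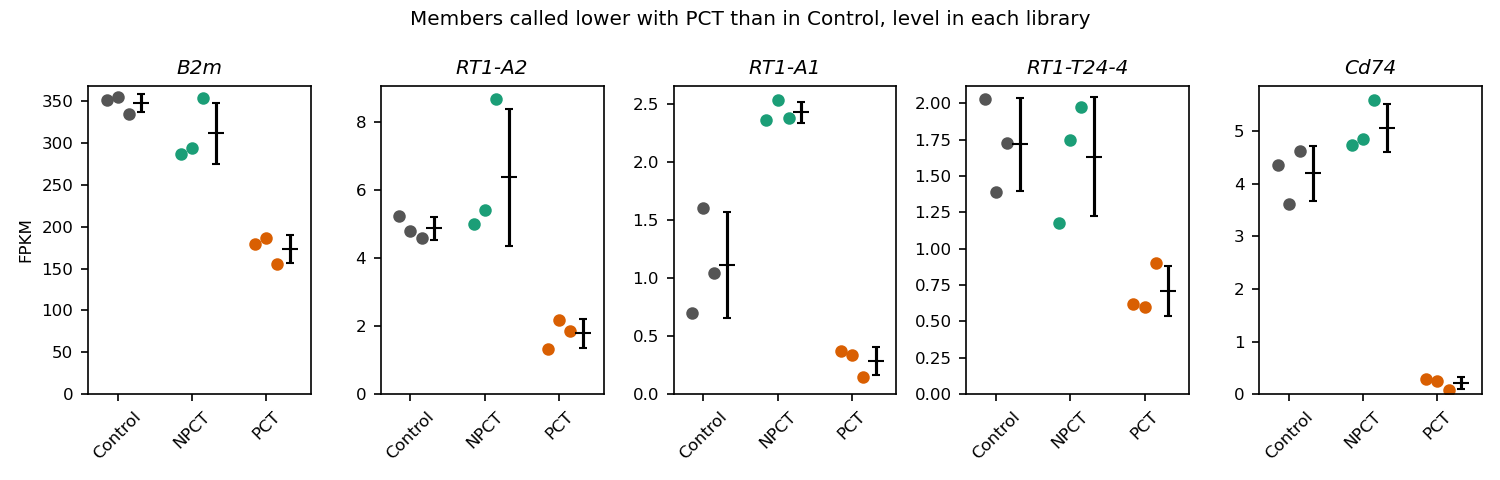
FPKM of the 5 genes called lower with PCT than in Control, with a point for each library and the mean and SD of 3 libraries beside them. In each panel the 3 PCT libraries lie below every Control and NPCT library.

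The sequences upstream of the 5 genes called lower with PCT are shown so that their letters can be compared, since elements shared between MHC promoters are well described. Whether such elements had a part in the changes was not tested. Windows of 250 bases before the start were taken from RefSeq (GRCr8) for 37 of the 43 genes and searched on both strands for 4 sets of letters, chosen after these promoters had been read. The letters were AANNGAAA for an interferon-response (IRF) element, GGG, 2 bases of any kind, TT, 1 base of any kind and CC for a kB element, TGACG for the core of a cyclic AMP response element (CRE) and CCAAT for a Y box. The stretches below run 5′ to 3′ on the strand of the gene, with the matches on either strand in capitals, and no matches overlapped in them. They are B2m at chr3:129549172-129549329, RT1-A2 at chr20:4872687-4872870, RT1-A1 at chr20:4907073-4907208, RT1-T24-4 at chr20:2689187-2689332 and Cd74 at chr18:56527007-56527205, all on the plus strand, and, as a gene with an IRF and a kB match that was not called, Tap1 at chr20:4668544-4668674 on the minus strand.
B2m: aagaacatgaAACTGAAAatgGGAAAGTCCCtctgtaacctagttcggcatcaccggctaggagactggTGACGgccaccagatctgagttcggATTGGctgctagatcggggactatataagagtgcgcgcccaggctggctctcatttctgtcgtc
RT1-A2: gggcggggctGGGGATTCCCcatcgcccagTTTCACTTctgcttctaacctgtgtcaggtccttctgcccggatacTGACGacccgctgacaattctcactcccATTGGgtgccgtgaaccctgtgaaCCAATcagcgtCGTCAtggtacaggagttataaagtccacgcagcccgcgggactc
RT1-A1: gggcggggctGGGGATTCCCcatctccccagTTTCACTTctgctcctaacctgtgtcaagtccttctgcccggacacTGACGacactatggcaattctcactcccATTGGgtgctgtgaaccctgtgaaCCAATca
RT1-T24-4: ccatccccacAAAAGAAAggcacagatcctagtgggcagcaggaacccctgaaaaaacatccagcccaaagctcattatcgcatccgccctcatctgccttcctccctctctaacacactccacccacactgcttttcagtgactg
Cd74: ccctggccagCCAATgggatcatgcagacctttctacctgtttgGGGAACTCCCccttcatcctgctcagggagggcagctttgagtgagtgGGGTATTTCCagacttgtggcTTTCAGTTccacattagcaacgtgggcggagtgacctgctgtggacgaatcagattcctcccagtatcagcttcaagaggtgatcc
Tap1: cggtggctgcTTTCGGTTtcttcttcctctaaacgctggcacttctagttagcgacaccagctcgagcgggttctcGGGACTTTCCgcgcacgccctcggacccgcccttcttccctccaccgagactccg

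All 4 sets of letters stood together before B2m, RT1-A2 and RT1-A1, whereas RT1-T24-4 held only an IRF match. Over the 33469 promoters in the table this held for 18 (0.0538%), among them RT1-CE16 and RT1-A3, 2 class I genes that are not among the 43. The kB letters were found before 4 of the 5 genes called lower with PCT and before 3 of the 16 other tested genes with a window, where 4.36% of all promoters held them. The IRF letters were found before all 5 called genes and 13 of the 16 others (23.3% of all promoters), CRE letters before 3 and 3 (18.2%), and Y box letters before 4 and 8 (34.0%). In windows of 300 bases around their starts, RT1-A1 and RT1-A2 share an identical run of 71 bases. A match describes the letters and not a bound site. Because the letters were chosen after these promoters had been read, the counts cannot test a difference between called and other genes.

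**Figure D3:**
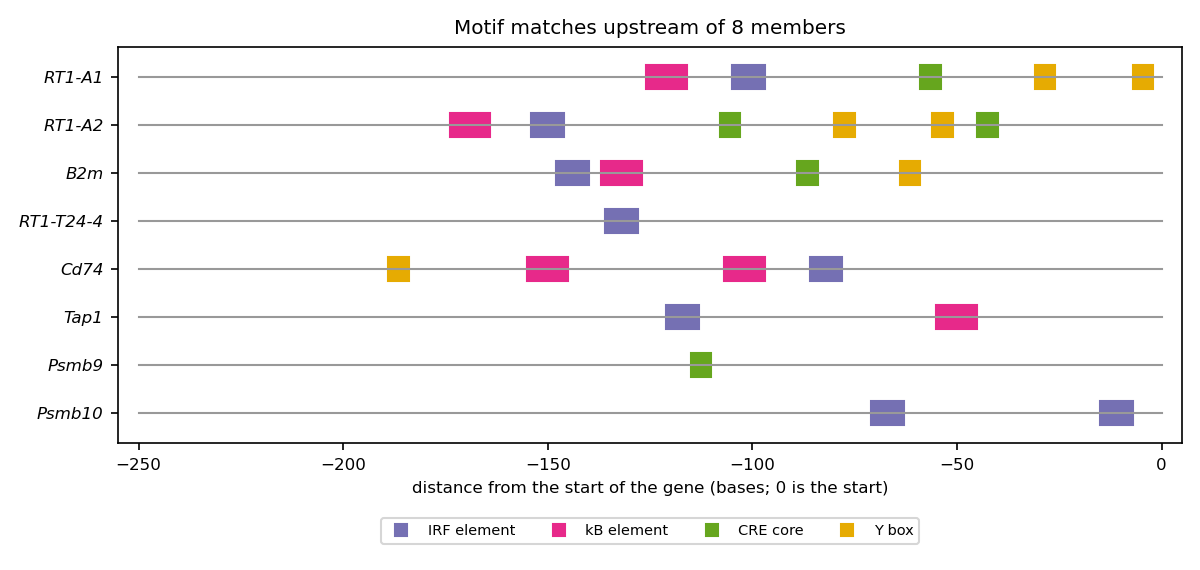
Position of the letter matches in the 250 bases before the start of 8 genes, with the distance from the start in bases on the horizontal axis. RT1-A1, RT1-A2 and B2m hold all 4 kinds, Cd74 holds all but the CRE core, and Tap1 holds an IRF and a kB match.

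The other 10 tested class I heavy chain genes were not called with PCT, with log2 fold changes from -0.75 to 0.52. The lowest of these was RT1-T24-1 at -0.75 (SE 0.464, adjusted p = 0.436) and the highest RT1-CE7 at 0.52 (SE 0.393, adjusted p = 0.542). RT1-N2, the most abundant heavy chain gene, was at 6.24, 6.73 and 6.37 FPKM in Control, 7.03, 6.08 and 7.14 FPKM with NPCT and 3.85, 5.18 and 5.66 FPKM with PCT. Its PCT libraries lay below the others, but the difference of -0.41 (SE 0.142) did not pass the test (adjusted p = 0.157).

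The RT1-CE genes, a non-classical class I cluster, showed no such order. Their 6 genes together held 15.8 ± 2.83 of every 1000000 fragments in Control, 18.6 ± 1.58 with NPCT and 16.1 ± 4.97 with PCT (SD, n = 3). Several of their gene models overlap, as do those of 9 of the 43 genes with another of the 43 on the same strand, so values of single RT1-CE genes are uncertain.

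Peptide transport and loading was not called in either direction with PCT. Tapbp was at 9.20, 7.70 and 6.89 FPKM in Control, 9.04, 10.7 and 9.76 FPKM with NPCT and 8.13, 7.87 and 9.90 FPKM with PCT, and the groups overlapped. Tap1 differed from Control by 0.35 on the log2 scale with PCT (95% interval -0.04 to 0.75, adjusted p = 0.321) and Tapbp by 0.12 (-0.17 to 0.42, adjusted p = 0.679), so a fall as large as that of B2m lay outside both intervals. Tap2 had a wider interval, from -1.26 to 0.82.

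The immunoproteasome genes were not called with PCT either. Psmb10, the subunit that replaces Psmb7, was at 24.2, 18.5 and 22.7 FPKM in Control, 30.7, 28.6 and 35.2 FPKM with NPCT and 22.5, 25.1 and 30.6 FPKM with PCT. The PCT libraries overlapped those of Control, and the NPCT libraries lay above Control. Psmb8 and Psmb9, which replace Psmb5 and Psmb6, differed from Control by -0.16 (95% interval -0.88 to 0.56) and -0.06 (-0.42 to 0.30) with PCT. Psme2, a subunit of the proteasome activator PA28, was at 19.7, 18.8 and 21.2 FPKM in Control and 24.4, 24.4 and 27.7 FPKM with PCT. All PCT libraries were above Control, and the increase of 0.36 on the log2 scale passed the p threshold (SE 0.0801, adjusted p = 0.0437) but stayed below a 1.5-fold change. Its partner Psme1 gave only 0 to 5 fragments per library. Psme1 overlaps Emc9, a gene on the opposite strand, and the counting is not stated to use strand, so its level is uncertain.

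Set against their constitutive counterparts, Psmb8 stood at 3.53 ± 0.379% of Psmb5 in Control, 4.19 ± 0.955% with NPCT and 2.59 ± 0.890% with PCT (FPKM, SD, n = 3). Psmb9 stood at 9.27 ± 1.34% of Psmb6 in Control, 8.16 ± 2.1% with NPCT and 7.23 ± 1.36% with PCT. Psmb10 was much closer to its counterpart Psmb7, at 50.6 ± 9.25%, 62.3 ± 6.82% and 56.7 ± 28.0%. The Psmb8 share was lower in each PCT library (1.57 to 3.17%) than in any Control library (3.18 to 3.93%), by a narrow margin, while those of Psmb9 and Psmb10 overlapped between PCT and Control, and no test was made on these shares. Psmb5 itself was at 100.4 ± 14.3 FPKM with PCT against 79.0 ± 1.63 FPKM in Control (SD, n = 3, adjusted p = 0.0835), while Psmb8 was at 1.40, 2.89 and 3.70 FPKM with PCT, below, within and above the Control range of 2.56 to 3.11 FPKM.

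Nlrc5, the transactivator of class I genes, was at 0.988, 0.702 and 0.590 FPKM in Control, 0.885, 0.874 and 0.778 FPKM with NPCT and 0.646, 1.04 and 0.864 FPKM with PCT. The groups overlapped, and the difference with PCT was 0.15 on the log2 scale (95% interval -0.54 to 0.84, adjusted p = 0.851).

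**Figure D4:**
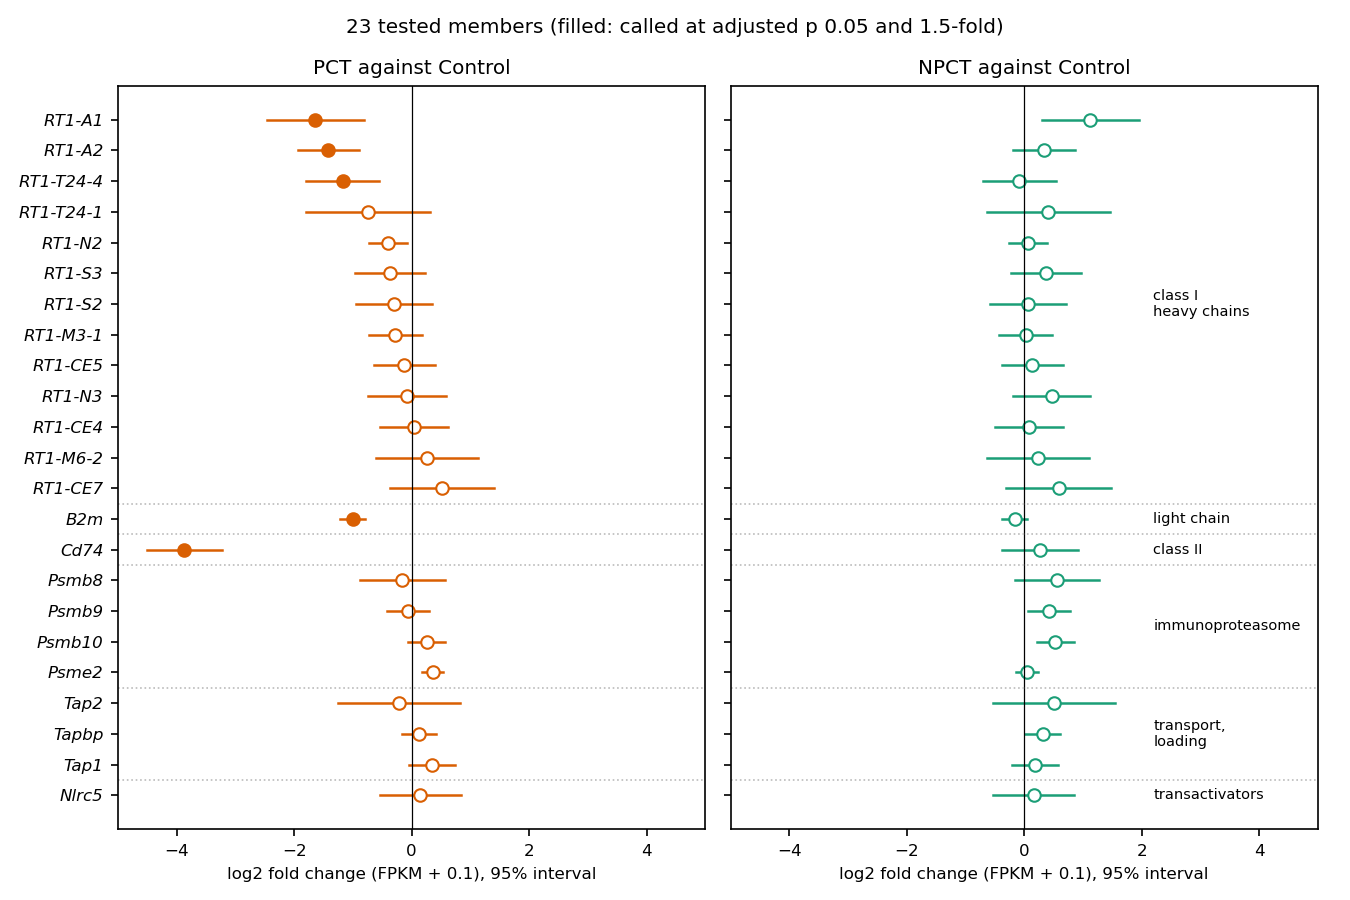
Log2 fold change against Control with its 95% interval for the 23 tested genes, PCT on the left and NPCT on the right, filled where called and grouped by role. With PCT 5 genes are filled, the furthest from 0 being Cd74 at -3.87, and with NPCT none is filled.

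The comparison of NPCT with Control asked the same of the cleaved peptide. None of the 23 genes was called, where limma called 35 of all genes tested, or 0.219%, with 0.15% higher and 0.0689% lower. At an unadjusted p under 0.05 there were 4 of the 23 (Psmb10, RT1-A1, Psmb9 and Tapbp), beside 29.3% of all genes tested. The median log2 fold change was 0.27 with 21 of 23 above 0, beside a median of 0.0062 over all genes and of 0.22 over the 108 other tested genes in the same stretch of chromosome 20 as the RT1 genes. The groups did not overlap for 6 genes, all with NPCT higher, where 20% of all genes tested did so in that direction and 20.3% in the other.

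RT1-A1 had the widest difference, 2.42 ± 0.094 FPKM with NPCT against 1.11 ± 0.458 FPKM in Control (SD, n = 3), or 1.13 on the log2 scale (SE 0.366, adjusted p = 0.0878). The 3 NPCT libraries, on 90, 99 and 100 fragments, were all above the Control libraries, on 29, 65 and 41 fragments. RT1-A1 was called higher with limma-voom on fragments (adjusted p = 0.0319), in a fit of only these groups (0.0400) and without PCT 3 (0.0372), and in no other alternative. Psmb10, with the lowest adjusted p of the 23 genes, differed by 0.53 (SE 0.139, adjusted p = 0.0598) and Psmb9 by 0.42 (SE 0.160, adjusted p = 0.123). RT1-CE7 and Psmb8 differed by 0.59 (SE 0.393, adjusted p = 0.347) and 0.56 (SE 0.320, adjusted p = 0.274). B2m differed by -0.16 (95% interval -0.38 to 0.05, adjusted p = 0.288) and Cd74 by 0.27 (-0.38 to 0.91, adjusted p = 0.563).

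NPCT and PCT were then compared directly, at the same dose and time, as the parent peptide and its amino-terminal stretch. The same 5 genes were called, all higher with NPCT than with PCT, where 5.76% of all genes tested were called, 4.38% higher and 1.38% lower. The groups did not overlap for 9 genes with NPCT higher and 1 with NPCT lower, beside 15.4% and 18% of all genes. Cd74 differed by 4.14 on the log2 scale (SE 0.285, adjusted p = 0.000199), RT1-A1 by 2.77 (SE 0.366, adjusted p = 0.00309) and RT1-A2 by 1.76 (SE 0.232, adjusted p = 0.00307). RT1-T24-4 differed by 1.09 (SE 0.274, adjusted p = 0.0300) and B2m by 0.84 (SE 0.0955, adjusted p = 0.00172). The calls of B2m, Cd74, RT1-A1 and RT1-A2 were kept under all 18 alternatives, those of RT1-T24-4 under 12, with adjusted p up to 0.092. The size of the difference moved more, from 2.33 to 4.71 on the log2 scale for Cd74 and from 1.42 to 3.18 for RT1-A1. Both were smallest with a pseudocount of 1. This comparison shares the PCT libraries with the comparison of PCT with Control.

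Among the other 18 genes the differences between the peptides ran from -0.31 to 1.16. RT1-N2 was higher in every NPCT library than in any PCT library, by 0.47 on the log2 scale (SE 0.142, adjusted p = 0.0540). RT1-S3 differed by 0.74 (SE 0.265, adjusted p = 0.0886) and Psmb8 by 0.72 (SE 0.320, adjusted p = 0.153), and both were called only without PCT 3. Psme2 was lower with NPCT than with PCT by 0.31 on the log2 scale (SE 0.0801, adjusted p = 0.0329), under the 1.5-fold limit. Tap1, Tapbp, Nlrc5 and RT1-CE4 differed by -0.16 (95% interval -0.56 to 0.23), 0.19 (-0.11 to 0.49), 0.01 (-0.68 to 0.70) and 0.04 (-0.55 to 0.62).

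Other genes of these pathways were followed by lists. For each list, the share to set beside its calls with PCT is that of all genes tested, 1.72% lower and 0.589% higher. None of 9 genes of class I loading and peptide trimming, such as the chaperones calreticulin (Calr) and Pdia3, was called with PCT, and their median log2 fold change was -0.02. None of 5 constitutive proteasome genes and none of 7 genes of the factors that bind MHC promoters (the Rfx and Nfy subunits and Creb1) was called. Of 8 genes that process antigen for class II or hold its proteases in check, 7 had a negative log2 fold change with PCT (median -0.41). Among them Cst3, the protease inhibitor cystatin C, was called lower, at 1275 FPKM with PCT against 1956 FPKM in Control (log2 -0.62, SE 0.110, adjusted p = 0.0179). Cathepsin S (Ctss), which trims the invariant chain, was at 5.47, 4.27 and 4.40 FPKM in Control and at 1.09, 1.49 and 2.48 FPKM with PCT, a difference of -1.50 that did not pass the test (SE 0.567, adjusted p = 0.190).

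Interferon signalling is the best known inducer of these genes. Of 16 receptor and signalling genes, 1 was called with PCT, and it was higher. Irf1, a transcription factor that binds IRF elements of class I promoters, was at 4.71, 5.05 and 3.71 FPKM in Control, 4.02, 4.94 and 4.14 FPKM with NPCT and 8.73, 10.3 and 10.1 FPKM with PCT. The PCT libraries were all above the rest, and Irf1 rose by 1.10 on the log2 scale (SE 0.139, adjusted p = 0.00391). Thus Irf1 was called higher in the same libraries in which B2m and RT1-A2 were called lower. Interferon genes themselves were not tested, since all 5 in the table stayed below the filter and Ifng was listed at 0 throughout. Their summed level was 0, 0.128 and 0.0661 FPKM in Control and 0, 0 and 0.0386 FPKM with NPCT. With PCT it was 0.193, 0.202 and 0.693 FPKM. The PCT values were the highest, but levels this low rest on few fragments, so nothing was read from their order. No test was made on this sum. Icam1, an adhesion molecule, was called higher with PCT among 5 tested genes of co-stimulation and other presentation, at 19.96 against 12.3 FPKM (log2 0.69, SE 0.157, adjusted p = 0.0461).

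Markers of other cells moved in the same libraries. Of 14 microglial marker genes tested, all had a negative log2 fold change with PCT (median -1.39) and 5 were called lower, namely Cx3cr1, Aif1, Csf1r, Tyrobp and Spi1. Over all genes tested, 1.72% were called lower in this comparison, and the median was 0.0046. Cx3cr1, the fractalkine receptor of microglia, was at 3.44, 2.38 and 2.66 FPKM in Control, 3.13, 2.73 and 6.40 FPKM with NPCT and 0.508, 0.371 and 0.301 FPKM with PCT. It fell by 2.57 on the log2 scale (SE 0.328, adjusted p = 0.00402), and the summed level of the list lay between 52.4 and 56.6 FPKM with PCT, against 73.6 to 85.0 FPKM in Control. None of the 14 was at 0 in all libraries. In NPCT 3, Aif1 was at 14.7 FPKM against 4.65 and 4.45 FPKM in the other NPCT libraries, while Cd74 was at 5.59 against 4.73 and 4.86 FPKM and B2m at 354 against 287 and 295 FPKM. RT1-A2 was at 8.68 FPKM there against 5.01 and 5.42 FPKM, Psmb9 at 11.8 against 7.95 and 7.65 FPKM and Psmb8 at 5.39 against 3.36 and 3.91 FPKM, whereas RT1-A1 was at 2.38 against 2.36 and 2.53 FPKM. The part of the microglial markers in the lower levels of Cd74, B2m and the class I genes with PCT was not tested.

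Of 9 astrocyte markers 5 were called lower with PCT (Aldoc, Aldh1l1, Aqp4, S100b and Slc1a2), beside 1.72% of all genes tested. Of the 9, 8 had a negative and 1 a positive log2 fold change, and the median was -0.60. Their summed level was 2122 to 2193 FPKM with PCT against 2461 to 2640.2 FPKM in Control. The positive one was Gfap, the intermediate filament of astrocytes, at 919 ± 17.2 FPKM with PCT against 776 ± 48.1 FPKM in Control (SD, n = 3), with all PCT libraries above Control and a log2 difference of 0.25 that did not pass the test (SE 0.0833, adjusted p = 0.147). None of 12 neuronal markers was called, with a median of -0.01. Of 2 tested dendritic cell markers Itgax was called lower, and of 8 T, B and NK cell markers only 1 was tested and 5, among them Cd3e, were at 0 in all libraries. None of 8 oligodendrocyte and 2 endothelial markers was called, and of 5 fibroblast markers Col3a1 was called higher. Olig1 was lower with PCT by 0.51 on the log2 scale (SE 0.0522, limma adjusted p = 0.00161), under the 1.5-fold limit. The oligodendrocyte markers summed to 353 to 367 FPKM with PCT against 409 to 426 FPKM in Control, though 6 of the 8 had a positive log2 fold change. The part of the astrocyte markers in the results was not tested. With NPCT against Control no gene of these lists was called, and the microglial median was 0.49. This median includes NPCT 3, where the microglial markers summed to 241 FPKM. NPCT 1 and 2, at 82.9 and 78.4 FPKM, lay within the Control range of 73.6 to 85.0 FPKM. With NPCT against PCT, 9 microglial markers (median 2.01), 3 astrocyte markers and the dendritic cell marker Itgax were called higher. So were 4 class II processing genes (Cst3, Ctsz, Lgmn and Ctss), while Irf1, Icam1 and Col3a1 were called lower. Among all genes tested, 4.38% were called higher and 1.38% lower. NPCT 3 enters these values too, with Ctss at 4.62, 3.59 and 20.1 FPKM in NPCT 1, 2 and 3. Ctsz was at 15.7 ± 13.7 FPKM with NPCT (SD, n = 3).

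**Figure D5:**
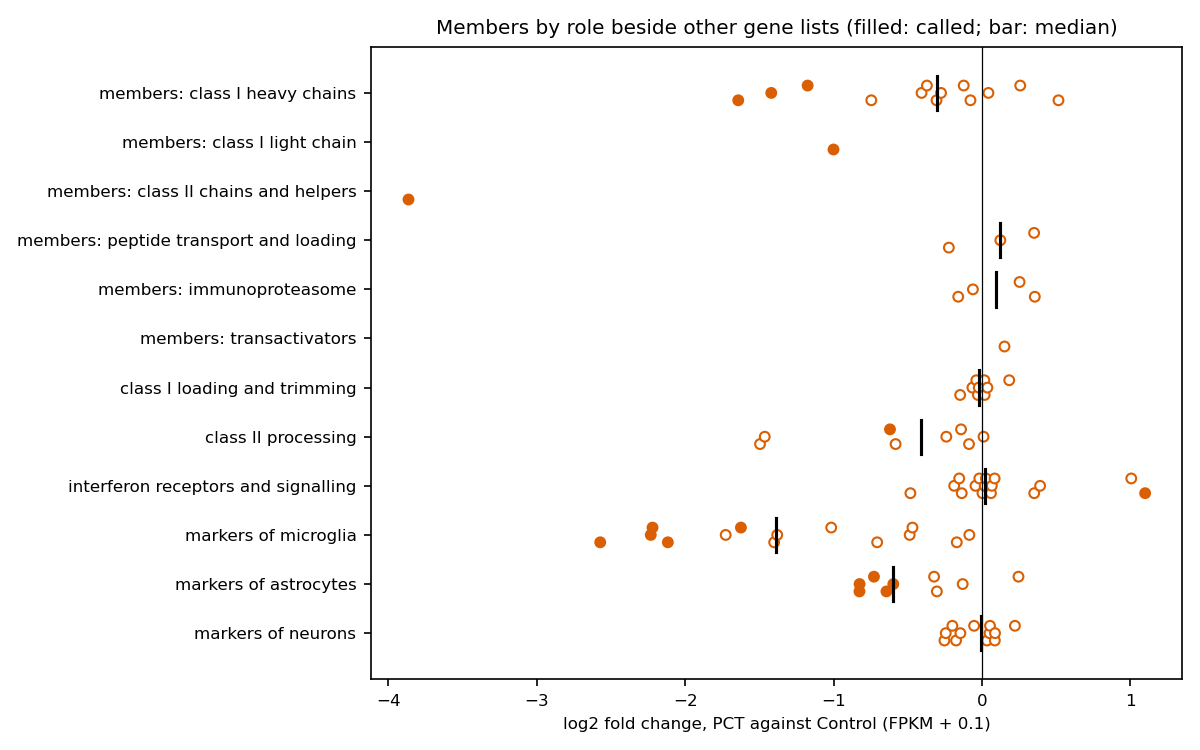
Log2 fold change of PCT against Control for each tested gene of the roles described here and of other gene lists, filled where called, with a bar at the median. Class I loading and neuronal markers centre near 0, microglial markers have a median of -1.39 and astrocyte markers a median of -0.60.

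The position of the genes in the genome was compared last. Of the 43 genes, 36 lie on chromosome 20 between 154074 and 5476193 (Rnor_6.0), with 311 other genes between them. Of these neighbours 108 were tested, and 3 were called lower with PCT and 0 higher, namely Aif1, the complement gene C2 and Lst1. Among all genes tested, 1.72% were called lower with PCT and 0.589% higher. The median log2 fold change of the 108 neighbours was 0.10 with PCT and 0.22 with NPCT. Over all genes tested these medians were 0.0046 and 0.0062. B2m and Cd74, the genes with the firmest calls, lie outside this region on chromosomes 3 and 18.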

How the data were processed

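RNA was measured in 9 libraries, 3 each of Control, NPCT and PCT neurons. Per the submitters' processing notes, reads were aligned with HISAT2 2.0.5 to Rnor_6.0 and counted with featureCounts 1.5.0-p3, and the methods name DESeq2 1.20.0 for the authors' own tests on counts. The deposited table holds the authors' FPKM values, unlogged, with no count column, so limma 3.58.1 in R 4.3.3 was used here in place of a count test. FPKM times gene length came out as whole multiples of a step per library (tolerance 0.01), which gave back the fragments per gene. Whether counting used strand is not given in the sources used here.

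Genes whose FPKM averaged 0.5 or more over the 9 libraries were kept, and limma was fitted to log2(FPKM + 0.1), 1 mean per group, with a prior variance that follows the level. P-values were adjusted by Benjamini-Hochberg over 15958 genes, and calling a gene took a change beyond 1.5-fold with an adjusted p no higher than 0.05. Intervals are at 95%. The fit was tested on simulated data. Full values are given for the genes called in any comparison, the highest gene of each role, Ciita and Nlrc5, and the rest by range and count. The genes and lists were chosen with earlier results of these data known. Alternatives were other pseudocounts and filters, quantile normalization, removal of a gene length trend, a fit of only the groups compared, a replicate block, limma-voom on fragments and each library left out. Promoters came from RefSeq tables (GRCr8), whose coordinates were not joined to those of Rnor_6.0. Figures were drawn with matplotlib 3.10.9.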

Additional observations from a re-analysis of the deposited data

How the results depend on the processing

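No direction turned under any alternative among the genes called. The number called with PCT against Control was 5, and it was 3 (B2m, Cd74 and RT1-A2) with a pseudocount of 1, a filter at 1 FPKM, no filter, quantile normalization or a fit of only the 2 groups, and 2 to 4 with a library left out. With NPCT against Control it was 0, and 1 (RT1-A1, higher) with limma-voom or a fit of only the 2 groups, and 0 to 1 with a library left out. For NPCT against PCT it was 5, and 4 (without RT1-T24-4) with quantile normalization or a fit of only the 2 groups. With a library left out it was 4 to 7, with 7 without PCT 3, where Psmb8 and RT1-S3 were added. The causes were not tested. Low fragment numbers limit RT1-A1, RT1-T24-4 and Cd74 in the PCT libraries.

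Libraries of the same replicate number did not deviate together (correlations from -0.07 to 0.03, against -0.05 to 0.05 for other numbers), so the numbers were not treated as pairs. With a replicate block the number called was 3 with PCT against Control, 0 with NPCT against Control and 5 for NPCT against PCT.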
